A study of Mus musculus with 16 samples.

Results

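The 9 genes described here encode the enzymes that move one-carbon units between serine, formate, purine precursors and thymidylate on the carrier folate. They were chosen by name, as the rows of the count table whose symbol was Shmt2, Mthfd2, Mthfd2l, Mthfd1l or Aldh1l2 (5 mitochondrial enzymes) or Shmt1, Mthfd1, Aldh1l1 or Tyms (4 cytosolic enzymes). Each symbol matched 1 row, so the set made up 9 of the 36499 rows, and all 9 were among the 15255 genes with enough reads to be tested.

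RNA was sequenced from cardiac tissue of mice in 4 groups of 4 libraries each, all kept on normal chow. The Clpp KO group lacked Clpp, the gene of the proteolytic subunit of the mitochondrial matrix protease ClpXP, in the whole body; these mice came from crosses of Clpp+/- animals made with a β-actin Cre. The double KO group lacked both Clpp and Fgf21, the gene of a hormone that stressed tissues secrete, and was bred from Clppfl/fl Fgf21fl/fl mice with the same β-actin Cre. The Fgf21 KO group lacked Fgf21 alone, and how it was bred was not described in the sources used here. The WT group carried neither deletion. Age, sex and the part of the heart sampled were not given, and the labels do not say whether each library is from its own animal, so the p-values speak for the spread among these libraries, which may be technical.

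In mitochondria, SHMT2 takes a carbon from serine, MTHFD2 or its relative MTHFD2L oxidises the resulting methylene-tetrahydrofolate, and MTHFD1L releases the carbon as formate for export, while ALDH1L2 instead oxidises formyl-tetrahydrofolate to CO2 with the production of NADPH. In the cytosol, MTHFD1 loads formate back onto tetrahydrofolate, SHMT1 exchanges carbon with serine and glycine, TYMS spends it on thymidylate, and ALDH1L1 removes surplus formyl groups. MTHFD2 is known for high levels in embryonic and dividing cells, for low levels in most adult tissue, and for rising with the transcription factors ATF4 and ATF5 when mitochondria fail.

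Total counts ran between 36260545 and 51820727 per library. Clpp counts were 308 to 355 in the Clpp KO libraries, 267 to 293 in the double KO libraries, 1435 to 2636 in the Fgf21 KO libraries and 1728 to 2108 in the WT libraries. Fgf21 had 0 counts in all 8 libraries of the double KO and Fgf21 KO groups, where 3 counts over a group correspond to 0.0221 and 0.0142 CPM (counts scaled to a common library total); it had 6 to 28 counts in Clpp KO libraries and 0 to 5 in WT libraries. Summed levels of 6 ventricular cardiomyocyte markers lay between 22390 and 51310 CPM in every library. WT replicates 2 and 4 stood apart, with summed atrial markers of 10090 and 6421 CPM, against 80.7 and 74.7 CPM in WT replicates 1 and 3; their summed white fat markers were 50.0 and 158 CPM, against 0.568 and 0.477 CPM. In the other groups the atrial sums were 187 to 3484 CPM (Clpp KO), 161 to 1405 CPM (double KO) and 337 to 2799 CPM (Fgf21 KO). Results against WT are therefore given with and without each of these pairs. In tissue RNA, fewer cells of a type and less RNA per cell cannot be told apart. mRNAs encoded in mitochondrial DNA took 56.6% to 60.0% of counts in Clpp KO libraries, 56.1% to 60.8% in double KO libraries, 29.2% to 38.8% in Fgf21 KO libraries and 25.6% to 39.4% in WT libraries, so levels were scaled by TMM, which sets the bulk of genes level between libraries.

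**Figure D1:**
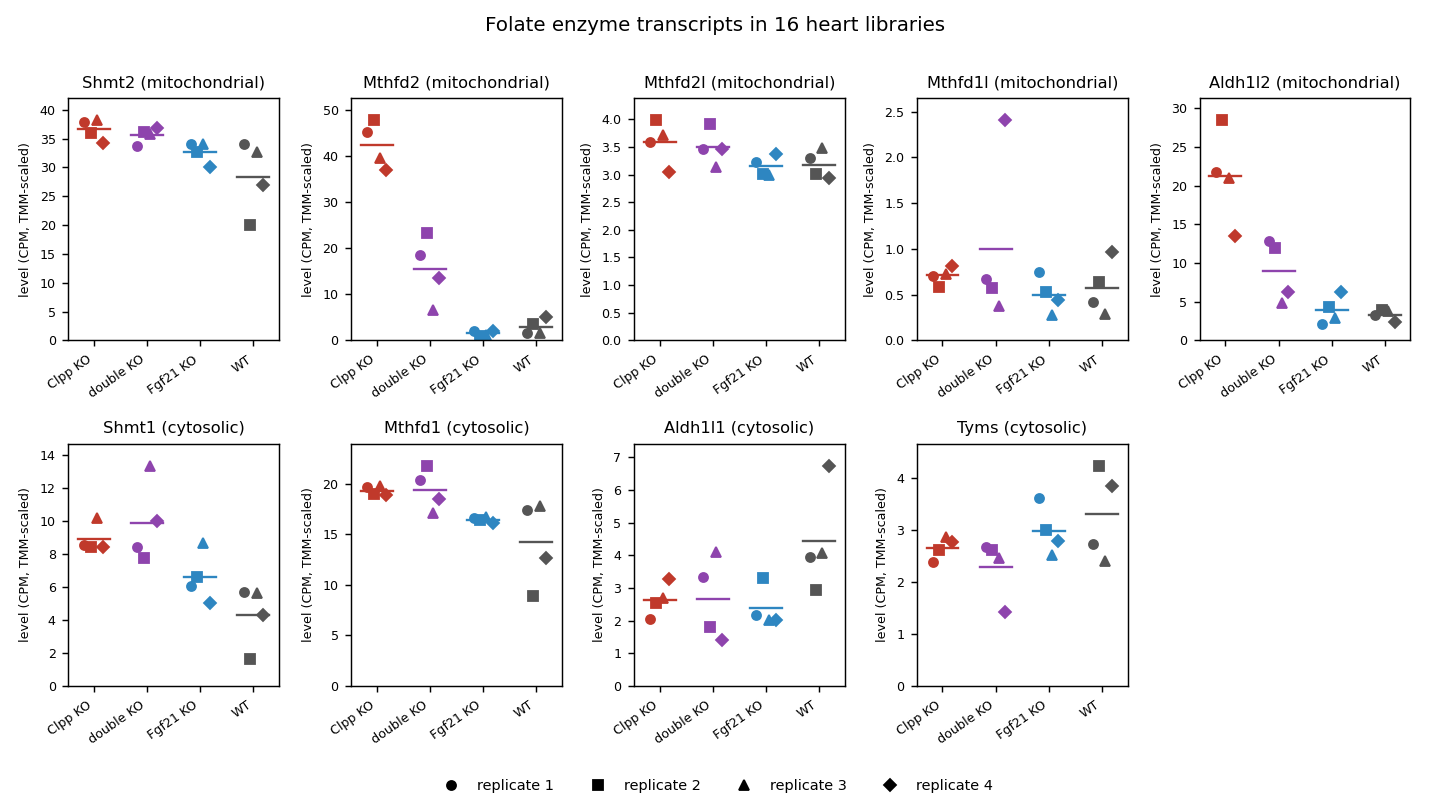
TMM-scaled level (CPM, vertical axis from 0) of each of the 9 folate enzyme transcripts in 16 heart libraries, by group; each symbol is 1 library, its shape the replicate number, and the line is the group mean. Mthfd2 lies between 37.0 and 47.8 CPM in Clpp KO hearts, between 6.64 and 23.4 CPM in double KO hearts and below 5 CPM in all Fgf21 KO and WT hearts, while Mthfd2l stays between 2.93 and 3.98 CPM in every library.

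The mitochondrial dehydrogenase gene Mthfd2 showed the highest level of the set in Clpp KO hearts and a low one in hearts that kept Clpp. The gene lies at chr6:83305691-83325908 on the minus strand (GRCm38). Its level was 45.2, 47.8, 39.7 and 37.0 CPM in the 4 Clpp KO libraries, 18.5, 23.4, 6.64 and 13.6 CPM in the double KO libraries, 1.99, 0.980, 1.22 and 2.07 CPM in the Fgf21 KO libraries and 1.63, 3.61, 1.69 and 4.98 CPM in the WT libraries. Every Clpp KO library was above every double KO library, and every double KO library was above every library with intact Clpp; the lowest double KO library, replicate 3, came nearest to WT. Within WT, the pair rich in atrial markers (replicates 2 and 4) held the higher values.

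Aldh1l2, whose product burns formyl groups to CO2, was likewise highest in Clpp KO hearts and next in double KO hearts. It lies at chr10:83487450-83534140 on the minus strand (GRCm38). Its level was 21.8, 28.4, 21.0 and 13.5 CPM in Clpp KO libraries, 12.8, 11.9, 4.78 and 6.28 CPM in double KO libraries, 2.06, 4.33, 2.89 and 6.23 CPM in Fgf21 KO libraries and 3.22, 3.97, 3.76 and 2.34 CPM in WT libraries. The Clpp KO libraries lay above all others, and double KO replicates 3 and 4 were the low ones of their group, with replicate 3 below Fgf21 KO replicate 4.

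The promoters of both dehydrogenases of the same step, the high Mthfd2 and the steady Mthfd2l, are shown because their levels parted. The sequences run from 250 bases before to 50 bases after each start site (RefSeq, GRCm38.p6), 5′ to 3′, for Mthfd2 (chr6:83317555-83317854, minus strand), for its relative Mthfd2l (chr5:90930946-90931245, plus strand), and for Phgdh (chr3:98339920-98340219, minus strand) and Asns (chr6:7693160-7693459, minus strand), the 2 genes whose levels were most like those of Mthfd2 over the 16 libraries. Capitals mark CCAAT, the core bound by NF-Y, or TGATGNAA, the core of the element bound by ATF4 with C/EBP proteins, on either strand.
Mthfd2: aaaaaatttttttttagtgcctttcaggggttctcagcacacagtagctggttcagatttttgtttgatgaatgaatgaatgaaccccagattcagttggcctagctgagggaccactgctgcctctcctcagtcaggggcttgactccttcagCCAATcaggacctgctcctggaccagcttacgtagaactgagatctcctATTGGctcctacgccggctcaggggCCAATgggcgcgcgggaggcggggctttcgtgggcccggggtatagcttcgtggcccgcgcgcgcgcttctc
Mthfd2l: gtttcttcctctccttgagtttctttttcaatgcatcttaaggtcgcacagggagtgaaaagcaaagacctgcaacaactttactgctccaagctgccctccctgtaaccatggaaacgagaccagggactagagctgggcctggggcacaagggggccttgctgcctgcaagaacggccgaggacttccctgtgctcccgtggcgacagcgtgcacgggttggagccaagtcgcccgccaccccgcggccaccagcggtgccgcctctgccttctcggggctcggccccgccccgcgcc
Phgdh: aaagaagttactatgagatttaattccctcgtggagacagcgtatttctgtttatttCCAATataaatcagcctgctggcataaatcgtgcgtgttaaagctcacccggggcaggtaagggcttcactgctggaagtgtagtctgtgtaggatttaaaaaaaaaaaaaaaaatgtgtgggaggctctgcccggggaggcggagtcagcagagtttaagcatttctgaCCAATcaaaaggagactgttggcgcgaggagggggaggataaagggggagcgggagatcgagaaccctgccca
Asns: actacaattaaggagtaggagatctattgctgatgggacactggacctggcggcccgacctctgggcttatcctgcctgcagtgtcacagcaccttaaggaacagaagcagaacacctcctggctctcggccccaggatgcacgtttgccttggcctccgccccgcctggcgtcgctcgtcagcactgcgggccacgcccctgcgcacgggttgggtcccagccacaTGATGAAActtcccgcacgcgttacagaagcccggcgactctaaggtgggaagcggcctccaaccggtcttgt
The Mthfd2 window held 3 CCAAT cores, at 96 and 22 bases before the start on the gene's strand and at 47 bases before it on the other strand. The Phgdh window held 2, at 193 and 23 bases before the start, and the Mthfd2l window held none. TGATGNAA was present in the Asns window, 23 bases before the start, and absent from those of Mthfd2, Mthfd2l and Phgdh. Of 32851 RefSeq promoters of this length, 37.4% held CCAAT and 3.97% held TGATGNAA. Among the other members, CCAAT stood in the windows of Shmt1, Mthfd1 and Aldh1l1 and in none of those of Shmt2, Mthfd1l and Tyms. TGATGNAA stood in none of the 8 member promoters available. No promoter was available for Aldh1l2, so that gene, 1 of the 2 members called in Clpp KO against WT, was not searched. The E-box CACGTG (7.15% of promoters) stood only in the Tyms window among members, and the GC box GGGCGG (35.7%) stood in the windows of Mthfd2l, Mthfd1l, Shmt1, Mthfd1, Aldh1l1 and Tyms. The RefSeq starts of Mthfd2 and Aldh1l1 lie well inside the gene spans given in this report. Sequence at the outer 5′ ends of those spans was not searched. The motifs were picked after the sequences had been seen, and a match is a description of letters, not of binding.

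Loss of Clpp in hearts with intact Fgf21 was read from Clpp KO against WT. Mthfd2 averaged 42.4 ± 4.96 CPM in Clpp KO hearts and 2.98 ± 1.62 CPM in WT hearts (SD, n = 4 each), and it rose 14.3-fold, a log2 fold change of 3.84 ± 0.42 (SE; adjusted p = 0.000213, edgeR quasi-likelihood test with Benjamini-Hochberg adjustment). Aldh1l2 averaged 21.2 ± 6.09 CPM in Clpp KO hearts and 3.32 ± 0.728 CPM in WT hearts, and it rose 6.36-fold, a log2 fold change of 2.67 ± 0.37 (SE; adjusted p = 0.00128, same test). These 2 were the only members called by edgeR, both higher, against 1.63% of all genes called in either direction and 1.08% called higher. By p-value they ranked 14 and 38 of the 15255 genes tested. Groups did not overlap for 5 of the 9 members (Mthfd2, Aldh1l2, Shmt1, Mthfd1 and Shmt2), against 13.7% of all genes.

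The mitochondrial serine enzyme gene Shmt2 (chr10:127517123-127522444, minus strand) moved far less than the dehydrogenase that follows it. Its level was 38.0, 36.02, 38.2 and 34.2 CPM in Clpp KO libraries and 34.0, 20.0, 32.7 and 26.9 CPM in WT libraries. The groups were separate only narrowly, since the lowest Clpp KO library was just above WT replicate 1, and WT replicates 2 and 4 were the low ones. Its log2 fold change was 0.37 ± 0.13 (SE; adjusted p = 0.143, edgeR quasi-likelihood test with Benjamini-Hochberg adjustment). Mthfd2l (chr5:90931117-91021368, plus strand) had a log2 fold change of 0.18 with a 95% interval of -0.08 to 0.43, and Mthfd1l (chr10:3973118-4167081, plus strand), the formate-releasing enzyme, one of 0.30 with an interval of -0.77 to 1.38 at 12 to 75 counts per library over all 16. Limma voom, alone among the tools, called Mthfd1l higher. So Mthfd2 rose, while Shmt2 before it and Mthfd1l after it did not pass the edgeR test.

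Among the 4 cytosolic enzymes, none was called by edgeR, while 3 had an unadjusted p under 0.05 by edgeR, beside 21.3% of all genes. DESeq2, which called 5.51% of all genes, called Shmt1, and limma voom, which called 18.2%, called Shmt1 higher and Aldh1l1 lower. Shmt1 (chr11:60788104-60811718, minus strand) was at 8.55, 8.44, 10.2 and 8.45 CPM in Clpp KO libraries and at 5.70, 1.64, 5.65 and 4.32 CPM in WT libraries, with no overlap and with WT replicate 2 the lowest. Its log2 fold change was 1.04 ± 0.29 (SE; adjusted p = 0.0835, edgeR quasi-likelihood test with Benjamini-Hochberg adjustment). Mthfd1 (chr12:76255298-76319803, plus strand) was at 18.9 to 19.8 CPM in Clpp KO libraries and at 17.5, 8.90, 17.8 and 12.7 CPM in WT libraries, a log2 fold change of 0.45 ± 0.16 (SE; adjusted p = 0.148, same test). Aldh1l1 (chr6:90486427-90600203, plus strand) had a log2 fold change of -0.74 ± 0.31 and Tyms (chr5:30058202-30073617, minus strand) one of -0.31 ± 0.21, both with overlapping groups.

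Without WT replicates 2 and 4, the libraries rich in atrial and fat markers, the log2 fold change of Clpp KO against WT was 4.68 for Mthfd2 (adjusted p = 0.000387), 2.61 for Aldh1l2 (adjusted p = 0.0300) and 0.66 for Shmt1 (adjusted p = 0.239, all by edgeR). Without WT replicates 1 and 3, a choice made after seeing the data, the values were 3.32 (adjusted p = 0.000311), 2.75 (adjusted p = 0.00270) and 1.61 (adjusted p = 0.00317), and Shmt2 and Mthfd1 were then called as well, at 0.65 and 0.86; this fit called 31.7% of all genes. Without WT replicate 3 alone, 4 members were called, beside 6.15% of all genes. With the mean log2 level of the atrial markers as a covariate, the values were 3.88 for Mthfd2, 2.55 for Aldh1l2 and 1.18 for Shmt1. These 3, Shmt2 and Mthfd1 were then called, beside 7.33% of all genes. The calls of Mthfd2 and Aldh1l2 held in these fits, and those of Shmt1, Shmt2 and Mthfd1 were made in some of them and not in others. Scaling by library size alone lowered the median log2 fold change of all genes to -0.79, against -0.04 with TMM; Mthfd2 then stood at 3.03 and Aldh1l2 at 1.91, both still called, and Shmt2 at -0.34 and Mthfd2l at -0.57, below 0 but above that median.

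**Figure D2:**
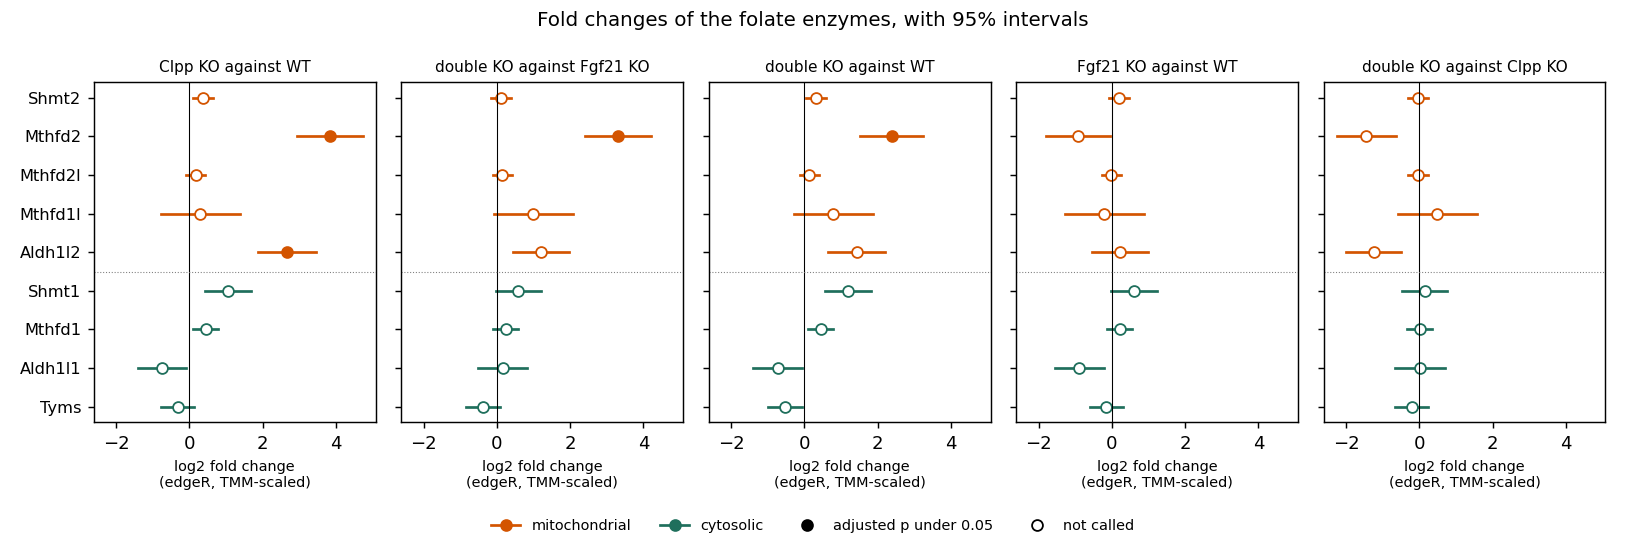
log2 fold change (horizontal axis; edgeR, TMM-scaled) of the 9 folate enzymes in 5 comparisons, with the 5 mitochondrial enzymes above the dotted line and the 4 cytosolic ones below it; bars are 95% intervals, and filled points passed an adjusted p of 0.05. Mthfd2 is at 3.84, 3.31 and 2.39 in the 3 comparisons that set hearts without Clpp against hearts with it, and Aldh1l2 is the only other filled point.

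Loss of Clpp in hearts that already lacked Fgf21 was read from double KO against Fgf21 KO. Mthfd2 averaged 15.5 ± 7.16 CPM in double KO hearts and 1.57 ± 0.547 CPM in Fgf21 KO hearts (SD, n = 4 each), and it rose 9.91-fold, a log2 fold change of 3.31 ± 0.42 (SE; adjusted p = 0.000613, edgeR quasi-likelihood test with Benjamini-Hochberg adjustment). It was the only member called, against 0.892% of all genes in either direction and 0.826% called higher. Aldh1l2 averaged 8.94 ± 4.00 CPM in double KO hearts and 3.88 ± 1.83 CPM in Fgf21 KO hearts, with overlapping groups and a log2 fold change of 1.21 ± 0.36 (SE; adjusted p = 0.263, same test), while DESeq2 gave it an adjusted p of 0.0438 and limma voom one of 0.0222. Groups were separate for 2 members, Mthfd2 and Mthfd1, against 5.8% of all genes. Mthfd1 was at 20.4, 21.8, 17.1 and 18.5 CPM in double KO libraries and at 16.6, 16.4, 16.7 and 16.1 CPM in Fgf21 KO libraries, a log2 fold change of 0.24 ± 0.16 that was not called. Shmt2 (33.8 to 36.8 CPM in double KO libraries, 30.1 to 34.1 CPM in Fgf21 KO libraries), Mthfd2l, Mthfd1l, Shmt1, Aldh1l1 and Tyms were not called, with log2 fold changes between -0.38 for Tyms and 1.00 for Mthfd1l. Mthfd1l was at 2.41 CPM in double KO replicate 4 and at 0.372 to 0.667 CPM in the other double KO libraries, and without replicate 4 its log2 fold change was 0.11. With library size alone as the scaling, Shmt2, Mthfd2l and Mthfd1 stood at -0.57, -0.54 and -0.45, beside a median of -0.70 over all genes.

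Against WT, the double KO hearts showed the same leading gene. Mthfd2 had a log2 fold change of 2.39 ± 0.40 (SE; adjusted p = 0.00656, edgeR quasi-likelihood test with Benjamini-Hochberg adjustment) and was the only member called, against 1.53% of all genes in either direction and 1.05% called higher. With only these 2 groups in the fit the adjusted p for Mthfd2 was 0.103, in place of 0.00656. Aldh1l2 at 1.43 ± 0.36 (adjusted p = 0.0644) and Shmt1 at 1.19 ± 0.30 (adjusted p = 0.0583) stayed just outside the threshold of edgeR with Benjamini-Hochberg adjustment, and DESeq2 called both, with adjusted p of 0.00316 and 0.00408. Groups did not overlap for these 3 genes, against 9.85% of all genes. Without WT replicates 2 and 4, Mthfd2 was at 3.23 (adjusted p = 0.00432), Aldh1l2 at 1.36 (adjusted p = 0.326) and Shmt1 at 0.80 (adjusted p = 0.151, all by edgeR); without WT replicates 1 and 3 they were at 1.88, 1.51 and 1.76, and all 3 were called in a fit that called 33.4% of all genes.

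Loss of Fgf21 in hearts with intact Clpp left no member called by edgeR, where 0.0459% of all genes were called. By edgeR, 2 members had an unadjusted p under 0.05, beside 9.17% of all genes. DESeq2, which called 0.223% of all genes, called 0 members, and limma voom, which called 0.662%, called 1. Groups overlapped for all 9 members, against 2.72% of genes with separate groups. The 2 with an unadjusted p under 0.05 were Mthfd2, with a log2 fold change of -0.92 ± 0.41 (SE), and Aldh1l1, with -0.89 ± 0.31, each with an adjusted p of 0.538 by edgeR. Aldh1l1 was at 2.19, 3.31, 2.03 and 2.01 CPM in Fgf21 KO libraries and at 3.96, 2.93, 4.09 and 6.74 CPM in WT libraries. Without WT replicates 1 and 3, which left the atrial-rich pair as the whole WT group, 4 members were called (Mthfd2 lower, at -1.43, and Shmt1, Mthfd1 and Shmt2 higher), beside 23.2% of all genes. Without WT replicates 2 and 4, which held the higher WT values of Mthfd2, no member was called, beside 0.0386% of all genes, and Mthfd2 stood at -0.07.

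Double KO against Clpp KO sets hearts without Fgf21 against hearts with it once Clpp was lost. These groups came from different crosses, so loss of Fgf21 and breeding cannot be told apart here. No member was called by edgeR, where 0.059% of all genes were. By edgeR, 2 members had an unadjusted p under 0.05, beside 3.55% of all genes, and DESeq2 and limma voom each called 1 member. Those 2, Mthfd2 and Aldh1l2, were also the only members whose groups did not overlap, against 5.78% of all genes. Mthfd2 averaged 15.5 ± 7.16 CPM in double KO hearts and 42.4 ± 4.96 CPM in Clpp KO hearts, a log2 fold change of -1.45 ± 0.38 (SE; adjusted p = 0.698, edgeR quasi-likelihood test with Benjamini-Hochberg adjustment). DESeq2, which called 0.229% of all genes here, gave Mthfd2 an adjusted p of 0.0372, and limma voom with quality weights, which called 0.262%, gave it 0.00847. Aldh1l2 averaged 8.94 ± 4.00 CPM in double KO hearts and 21.2 ± 6.09 CPM in Clpp KO hearts, a log2 fold change of -1.24 ± 0.35 (SE; adjusted p = 0.785 by edgeR), and no other tool called it. The other 7 members had log2 fold changes between -0.21 and 0.49, and the 95% interval for Shmt2 was -0.31 to 0.24.

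Whether losing Clpp acted differently with and without Fgf21 was tested directly as the interaction of the 2 losses. Clpp KO and double KO mice came from different crosses, and the breeding of Fgf21 KO mice was not described. Genotype and breeding therefore cannot be told apart in the interaction. No gene was called by edgeR (0% of those tested; 299 genes had an unadjusted p under 0.05, and DESeq2 called 3), and DESeq2 and limma voom called none of the members. Mthfd2 had an interaction of -0.53 ± 0.56 on the log2 scale (SE), with a 95% interval of -1.72 to 0.66. Aldh1l2 had the largest among members, -1.46 ± 0.50, with an unadjusted p of 0.0112 and an adjusted p of 1 (edgeR quasi-likelihood test with Benjamini-Hochberg adjustment). Aldh1l1 stood at 0.90 ± 0.45. Without WT replicates 1 and 3, Mthfd1 was the 1 member called, at -0.62, beside 5.22% of all genes; without WT replicates 2 and 4, no gene was called.

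Set per length of the longest coding transcript, in CPM per kilobase, the order of the enzymes changed between groups. In Clpp KO hearts Mthfd2 led with 20.3 ± 2.38 (SD, n = 4), above Shmt2 with 15.99 ± 0.810, Mthfd1 with 5.97 ± 0.150, Aldh1l2 with 3.52 ± 1.01 and Shmt1 with 3.12 ± 0.301. The ranges of Mthfd2 and Shmt2 were separate there (17.7 to 22.9 and 14.95 to 16.67), and those of Aldh1l2 and Shmt1 were not. In double KO hearts Shmt2 led with 15.6 ± 0.560, and Mthfd2 came next with 7.45 ± 3.43, a range that took in the Mthfd1 mean of 5.99. In Fgf21 KO hearts Mthfd2 ranked 6 of 9 at 0.751 ± 0.262, and in WT hearts it ranked 5 at 1.43 ± 0.778, a mean within the WT range of Shmt1 and close to that of Mthfd2l, 1.47 ± 0.118. Mthfd1l was last in every group, at 0.193, 0.272, 0.135 and 0.156 in Clpp KO, double KO, Fgf21 KO and WT hearts.

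Mthfd2 alone made up 38.9% ± 2.20 of the summed per-length level of the 9 transcripts in Clpp KO hearts, 19.5% ± 7.45 in double KO hearts, 2.88% ± 1.06 in Fgf21 KO hearts and 6.33% ± 3.88 in WT hearts (SD, n = 4 each). The 5 mitochondrial enzymes together held 79.7% ± 1.83 of that sum in Clpp KO hearts, 70.7% ± 4.30 in double KO hearts, 66.1% ± 1.33 in Fgf21 KO hearts and 67.0% ± 2.23 in WT hearts. Double KO replicate 3, at 64.4%, lay below every WT library, and the other double KO libraries at 71.7% to 74.4% lay above every WT library. The sum itself was 52.3 ± 3.75 CPM per kilobase in Clpp KO hearts, 37.2 ± 3.73 in double KO hearts, 26.2 ± 0.916 in Fgf21 KO hearts and 24.0 ± 4.15 in WT hearts.

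As a difference of mean log2 levels, mitochondrial minus cytosolic, the same contrast gave 0.71 ± 0.20 in Clpp KO hearts, 0.20 ± 0.64 in double KO hearts, -0.75 ± 0.29 in Fgf21 KO hearts and -0.62 ± 0.40 in WT hearts (SD, n = 4 each). All 4 Clpp KO libraries, at 0.46 to 0.89, lay above all WT libraries, at -0.90 to -0.05. Mthfd2 and Aldh1l2 carried most of this, with log2 fold changes of 3.84 and 2.67 in Clpp KO against WT. Shmt2 at 0.37, Mthfd1l at 0.30 and Mthfd2l at 0.18 lay within the span of the cytosolic members, -0.74 to 1.04. Double KO replicate 3, at -0.69, lay among the WT values, and the other double KO libraries, at 0.20 to 0.79, did not. The highest of these, replicate 4, was also the library with an outlying Mthfd1l of 2.41 CPM and Tyms of 1.41 CPM. No test was made on the mitochondrial minus cytosolic difference, since the members were chosen with these data known.

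Ratios between isozymes, described here with no test, were higher for the mitochondrial form at the dehydrogenase and formyl-oxidising steps in Clpp KO than in WT libraries, and lower at the serine step. Mthfd2 over Mthfd1, per length, was 3.04 to 3.92 in Clpp KO libraries, 0.605 to 1.67 in double KO libraries, 0.0927 to 0.200 in Fgf21 KO libraries and 0.145 to 0.630 in WT libraries. Mthfd2 over Mthfd2l was 11.1 to 13.0 in Clpp KO libraries, 2.19 to 6.18 in double KO libraries, 0.336 to 0.637 in Fgf21 KO libraries and 0.502 to 1.76 in WT libraries. Aldh1l2 over Aldh1l1 was 2.87 to 7.72 in Clpp KO libraries, 0.808 to 4.57 in double KO libraries, 0.654 to 2.15 in Fgf21 KO libraries and 0.240 to 0.939 in WT libraries. So both mitochondrial forms outweighed their counterparts in every Clpp KO library and in no WT library, with the exception that Mthfd2 exceeded Mthfd2l in WT replicates 2 and 4. Shmt2 over Shmt1 ran the other way, at 4.67 to 5.55 in Clpp KO libraries, 3.35 to 5.83 in double KO libraries, 4.90 to 7.48 in Fgf21 KO libraries and 7.22 to 15.2 in WT libraries, with Shmt2 the more abundant in all 16.

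**Figure D3:**
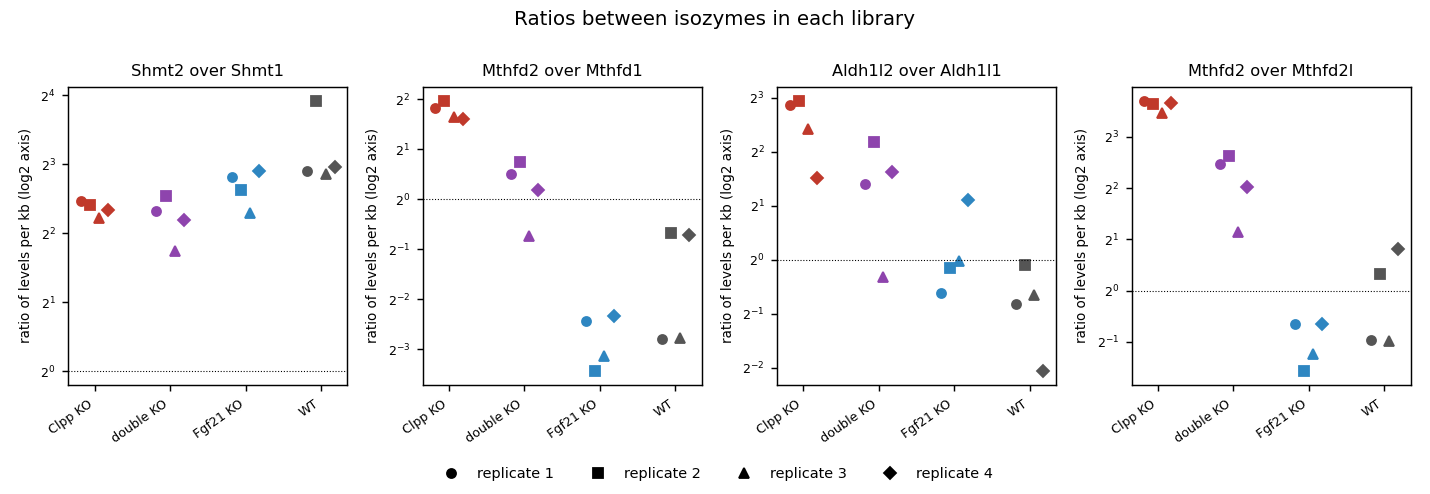
Ratio of per-kilobase levels (vertical axis, log2 scale) for 4 isozyme pairs in each of 16 libraries, by group; symbol shapes give the replicate number and the dotted line marks equal levels. Mthfd2 over Mthfd1 lies above the line in all Clpp KO libraries and below it in all Fgf21 KO and WT libraries, and Shmt2 over Shmt1 stays above the line in all 16.

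Over the 16 libraries, the genes outside the set whose log2 levels ran closest to Mthfd2 were Phgdh, the first enzyme of serine synthesis, Asns, which makes asparagine, and Usp18, a protease that removes the ubiquitin-like modifier ISG15. Their root mean square differences from Mthfd2, each gene centred on its own mean, were 0.41, 0.48 and 0.69 log2 units, beside a standard deviation of 1.97 for Mthfd2 itself. Phgdh was at 14.9, 15.8, 14.9 and 16.3 CPM in Clpp KO libraries, 5.57, 7.24, 2.08 and 3.75 CPM in double KO libraries, 0.996, 0.470, 0.977 and 0.896 CPM in Fgf21 KO libraries and 0.605, 2.08, 0.732 and 2.95 CPM in WT libraries. Replicate 3 was the lowest double KO library, and replicates 2 and 4 were the higher WT ones, for Phgdh and Asns as for Mthfd2. Usp18 averaged 30.1 CPM in Clpp KO hearts and 26.9 CPM in double KO hearts, against 1.75 CPM in Fgf21 KO and 2.85 CPM in WT hearts. Its mean was thus nearly as high in double KO as in Clpp KO hearts, unlike those of Mthfd2, Phgdh and Asns. Closest to Aldh1l2 were Siglec1, a macrophage surface lectin, Aldh18a1, an enzyme of proline synthesis, and Atf5, a stress transcription factor, at 0.53, 0.53 and 0.54 log2 units, beside 1.17 for Aldh1l2 itself.

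**Figure D4:**
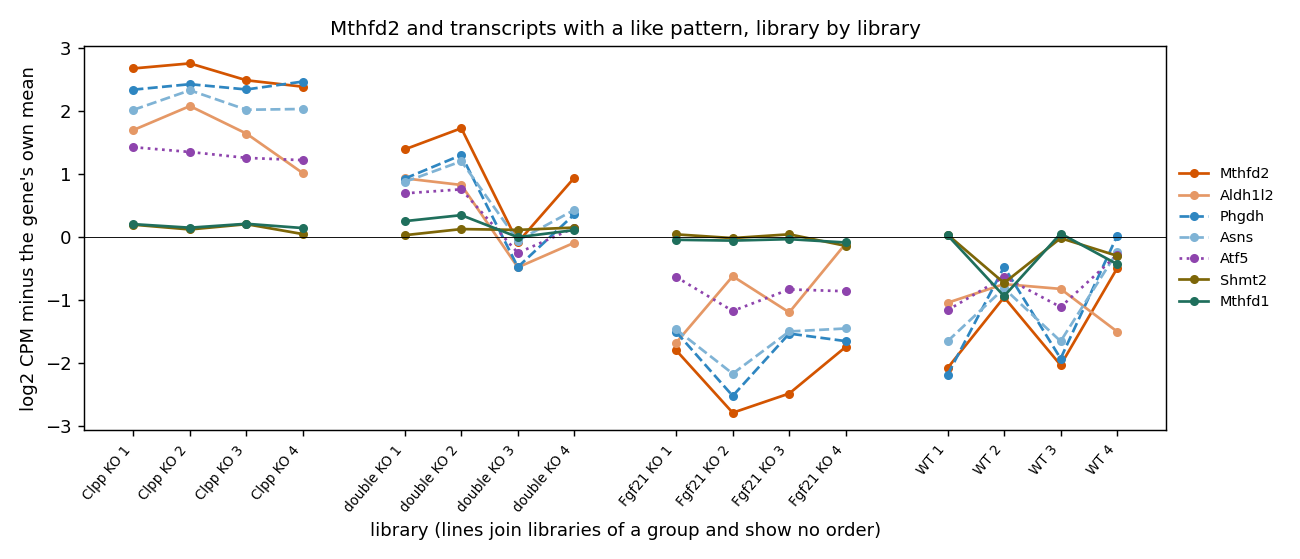
log2 CPM minus each gene's own mean over 16 libraries (vertical axis) for Mthfd2, Aldh1l2, Phgdh, Asns, Atf5, Shmt2 and Mthfd1, library by library (horizontal axis, by group); lines only join libraries of 1 group. Mthfd2, Phgdh and Asns dip together in double KO replicate 3 and stand higher in WT replicates 2 and 4, while Shmt2 and Mthfd1 stay within 1 log2 unit of their mean throughout. Usp18, Siglec1 and Aldh18a1, also among the closest genes, are not drawn.

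Among genes that feed or regulate the pathway, Phgdh, Psat1 and Atf5 rose in both comparisons of Clpp loss at matched Fgf21 genotype. Of 3 serine synthesis genes, 2 rose in Clpp KO against WT (Phgdh at 3.29, adjusted p = 0.00137, and Psat1 at 1.42, adjusted p = 0.00241) and the same 2 in double KO against Fgf21 KO (Phgdh at 2.48, adjusted p = 0.0151, and Psat1 at 1.04, adjusted p = 0.0325, all by edgeR with Benjamini-Hochberg adjustment). Psph, the last step of serine synthesis, had 0.26 and 0.25 and was called in neither. The list's median log2 fold change was 1.42 and 1.04, beside -0.04 and -0.01 over all genes tested. Of 8 regulator genes tied to folate genes (transcription factors and the pseudokinase gene Trib3), Atf5 at 2.07 (adjusted p = 0.000111) and Trib3 at 1.75 (adjusted p = 0.00126) rose in Clpp KO against WT, and Atf5 alone in double KO against Fgf21 KO at 1.26 (adjusted p = 0.00656, edgeR with Benjamini-Hochberg adjustment); Atf4 itself was at 0.19 and 0.17. In double KO against WT none of the serine synthesis genes was called by edgeR. Of them, 2 had an unadjusted p under 0.05 by edgeR, beside 22.8% of all genes, and DESeq2 called 2, beside 6.33%. Atf5 at 1.15 and Trib3 at 1.10 were called by edgeR there. In double KO against Clpp KO neither list had a gene called by edgeR. Phgdh stood at -1.73 (adjusted p = 0.579), Psat1 at -0.67 and Atf5 at -0.92 (adjusted p = 0.437, edgeR with Benjamini-Hochberg adjustment). Each list had 2 genes with an unadjusted p under 0.05 by edgeR, beside 3.55% of all genes. DESeq2, which called 0.229% of all genes, and limma voom, which called 0.262%, each called 1 per list. Of the 13 mRNAs encoded in mitochondrial DNA, 11 rose in Clpp KO against WT and 10 in double KO against Fgf21 KO, and those with the smallest p-values were mt-Co2 (1.38 and 1.47), mt-Atp6 (1.65 and 1.56), mt-Nd1 (1.71 and 1.43) and mt-Nd3 (1.39 and 1.77). The list's median was 1.54 and 1.47 and its highest value 2.28 and 2.15 (mt-Atp8), and mt-Nd3 alone rose in double KO against Clpp KO, at 1.44. Their part in the results on Mthfd2 was not tested, and with these genes left out of the table the calls of Mthfd2 and Aldh1l2 in Clpp KO against WT remained.

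Uptake and import of folate (6 genes tested), its reduction and methyl branch (7), mitochondrial glycine cleavage and formylation (7), purine and thymidylate steps (10), the methionine cycle (10) and proliferation markers (10) had no gene called by edgeR in any comparison. Of these 50 genes, 5 had an unadjusted p under 0.05 by edgeR in Clpp KO against WT and 2 in double KO against Fgf21 KO, beside 21.3% and 7.09% of all genes. DESeq2 called 1 and 0, beside 5.51% and 1.37% of all genes, and limma voom 6 and 1, beside 18.2% and 2.42%. In double KO against WT, 9 had an unadjusted p under 0.05 by edgeR, beside 22.8% of all genes. DESeq2 called 3 there, beside 6.33% of all genes, and limma voom 1, beside 6.14%. Median log2 fold changes in Clpp KO against WT ran between -0.15 for the proliferation markers and 0.25 for the purine and thymidylate steps. Summed proliferation markers were 29.9 to 36.8 CPM in Clpp KO libraries, 28.3 to 32.7 CPM in double KO libraries, 27.1 to 36.9 CPM in Fgf21 KO libraries and 27.9 to 35.9 CPM in WT libraries, ranges that overlapped between all 4 groups. The far values among methionine and glycine genes in double KO against Fgf21 KO were Dmgdh at 2.59, Mat1a at 2.36 and Bhmt at 1.96. These are liver genes, with standard errors of 1.44 to 1.60. Summed hepatocyte markers reached 153 CPM in double KO replicate 1 and at most 2.09 CPM in the other double KO libraries. They were uneven elsewhere too, at 0.259 to 10.4 CPM in Fgf21 KO, 0.571 to 52.2 CPM in Clpp KO and 1.48 to 45.5 CPM in WT libraries. Their part in the far values was not tested.

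**Figure D5:**
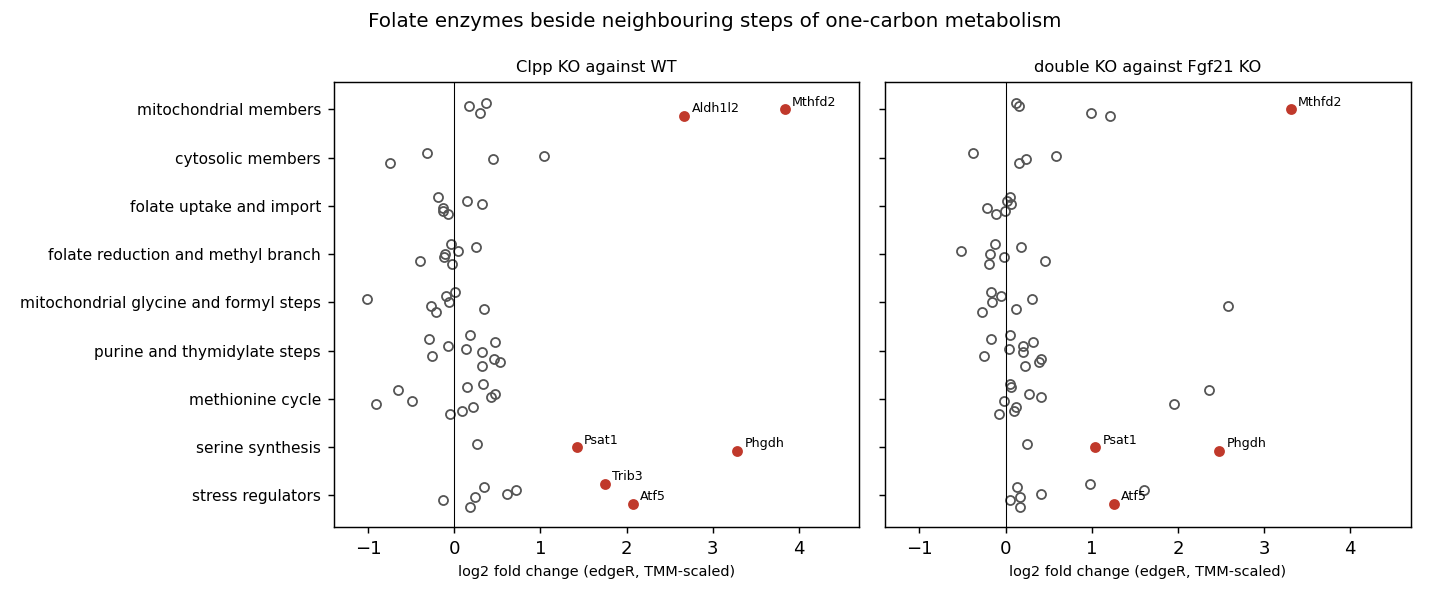
log2 fold change (horizontal axis; edgeR, TMM-scaled) of the folate enzymes and of 7 lists of neighbouring steps, each circle 1 gene, in Clpp KO against WT (left) and double KO against Fgf21 KO (right); filled circles passed an adjusted p of 0.05 and carry their names. The filled circles are Mthfd2, Aldh1l2, Phgdh, Psat1, Atf5 and Trib3 on the left and Mthfd2, Phgdh, Psat1 and Atf5 on the right.

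Shared sequence bears on how far single counts can be trusted. Mthfd2 had no 31-base word in common with the transcripts of any other annotated gene. Aldh1l2 shared 14.7% of its 31-base words, mostly with D10Wsu102e, which overlaps it on the other strand; the library kit kept strand, and whether counting used it was not stated. D10Wsu102e had a log2 fold change of -0.04 in Clpp KO against WT, with a 95% interval of -0.23 to 0.15, and it was called in neither comparison of Clpp loss. Aldh1l1 shared 11.4% with the antisense gene Gm15756, and Tyms shared 11.4% with the pseudogene Tyms-ps, so that their values are less certain. The other 5 members shared 0.158% to 4.86%.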

How the data were processed

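RNA was measured in 16 cardiac libraries, 4 in each of 4 genotype groups taken from the labels. The authors deposited 1 table of raw whole-number counts per gene; the submitters' processing notes name fastp 0.21.0, kallisto 0.46.1, edgeR 3.32.1, DESeq2 1.30.1, R 4.0.3 and build GRCm38.p6, and give no step that turned estimated into whole counts. Kallisto assigns reads by shared sequence, so reads common to 2 genes can be split between them.

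The deposited counts were fitted in R 4.3.3 with edgeR 4.0.16 (TMM scaling, filterByExpr with a count minimum of 10, robust quasi-likelihood test, all 16 libraries in 1 fit), and p-values were adjusted over all 15255 genes tested (Benjamini-Hochberg, threshold 0.05, two-sided). There were 6 comparisons: 5 between groups and the interaction. Comparisons share groups, so their values are set side by side and not correlated. The script was tested on simulated data. Levels are TMM-scaled CPM; log2 levels add a prior count of 2; per-length values divide by the longest coding transcript in the GENCODE annotation of GRCm38. Counting error is covered by these intervals only within the spread of libraries, whose common biological coefficient of variation was 0.249. Counts per library were 36260545 to 51820727, and genes at a few counts, such as Mthfd1l, have wide intervals.

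The members and the gene lists (9 pathway and 12 cell type lists, from general knowledge) were chosen with earlier results of these data known. Named were all members, both targeted genes, up to 4 called genes a list and comparison with the smallest p, and the 3 genes nearest each called member by root mean square difference of centred log2 CPM; Psph, Atf4, Dmgdh, Mat1a, Bhmt, D10Wsu102e, Gm15756 and Tyms-ps were added after their values were seen. Where a symbol had 2 rows, the row with more counts was used. WT replicates 1 and 3 were the closest pair (chi-square per gene 5.68, against 23.3 or more for other pairs), beyond sampling noise, and were counted as 2 samples. Replicate numbers did not pair libraries: same-numbered libraries correlated at -0.228 to 0.364. Alternatives covered scaling (RLE, library size, mitochondrial genes left out), the filter, DESeq2 1.42.0, limma 3.58.1 voom with quality weights, pairs of groups alone, a replicate block, an atrial covariate and libraries left out. Figures were drawn with matplotlib 3.10.9.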

Additional observations from a re-analysis of the deposited data

Results flagged for a closer look

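In 4 of the 36 sets of 4 libraries (9 members in 4 groups), 1 library lay far from the other 3 by Dixon's ratio; about 1 set in 20 does so by chance. Mthfd1l was at 2.41 CPM in double KO replicate 4, against 0.372 to 0.667 CPM in the other double KO libraries, and its log2 fold change in double KO against Fgf21 KO was 1.00 with that library and 0.11 without it. Tyms was lowest in the same library, at 1.41 CPM, against 2.45 to 2.67 CPM in the other double KO libraries. Shmt1 was at 10.2 CPM in Clpp KO replicate 3, against 8.44 to 8.55 CPM in the other Clpp KO libraries. Aldh1l1 was at 3.31 CPM in Fgf21 KO replicate 2, against 2.01 to 2.19 CPM in the other Fgf21 KO libraries. None of these 4 genes was called in any comparison by the main edgeR fit (TMM scaling, count minimum of 10, no covariate, all 16 libraries). Among alternative edgeR fits on all 16 libraries with TMM scaling, the atrial covariate called Shmt1 in Clpp KO against WT. A count minimum of 50 and the replicate block each called it in double KO against WT. Limma voom called Mthfd1l, Shmt1 and Aldh1l1, and DESeq2 Shmt1, in at least 1 comparison. What set the 4 libraries apart was not tested.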

How the results depend on the processing

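Mthfd2 was called higher in Clpp KO against WT under all 29 alternatives (log2 fold change 3.03 to 4.68) and in double KO against Fgf21 KO under all 29 (2.64 to 3.64), and Aldh1l2 in Clpp KO against WT under all 29 (1.91 to 2.83). The number of members called in Clpp KO against WT was 2; it was 6 with library size alone (Shmt2, Mthfd2l, Aldh1l1 and Tyms lower, beside 78.2% of all genes called), 5 with limma voom (18.2%), with the atrial covariate (7.33%) and without WT replicates 1 and 3 (31.7%), 3 with DESeq2 (5.51%), and 2 to 4 with 1 library left out, 4 without WT replicate 3 (6.15%). In double KO against Fgf21 KO it was 1, and 5 with library size alone (4 of them lower, beside 71.2% of all genes), 2 with DESeq2 (1.37%) and 2 with limma voom (2.42%). In double KO against WT it was 1, and 0 with only the groups compared (0.384%). It was 6 with library size alone (5 of them lower, beside 86% of all genes) and without WT replicates 1 and 3 (33.4%). Limma voom called 4 (6.14%) and DESeq2 3 (6.33%). It was 2 with a count minimum of 50 (1.83%), the replicate block (1.08%), WT replicates 1 and 3 summed (5.29%) or the atrial covariate (1.06%). With 1 library left out it was 1 to 4, and 4 without WT replicate 3 (7.19%). In Fgf21 KO against WT it was 0, and 1 with limma voom (0.662%) and 4 without WT replicates 1 and 3 (23.2%). For double KO against Clpp KO it was 0, and 1 with DESeq2 (0.229%) or limma voom (0.262%). For the interaction it was 0, and 1 without WT replicates 1 and 3 (5.22%). With the replicate block, Mthfd2 stood at 3.93 (adjusted p = 0.000375, edgeR) in Clpp KO against WT, and 3 of 16 libraries correlated best with their own number. Over all genes, DESeq2 called 841 in Clpp KO against WT in place of 249, the replicate block 146, and the fit without WT replicates 1 and 3 called 5060. Library size alone reversed Shmt2 and Mthfd2l in Clpp KO against WT (-0.34 and -0.57), Shmt2, Mthfd2l and Mthfd1 in double KO against Fgf21 KO (-0.57, -0.54 and -0.45) and in double KO against WT (-0.53, -0.75 and -0.38); it moved the median of all genes to -0.79, -0.70 and -0.92. The mitochondrial minus cytosolic difference stayed within the spread of libraries under its 22 alternatives, 1.06 to 1.61 around 1.33 in Clpp KO against WT and 0.75 to 1.25 around 0.95 in double KO against Fgf21 KO. Many of these alternatives could hardly move it. Scaling cancels within a library apart from the prior count, and libraries of groups not compared do not enter it. Only leaving out or summing libraries of the compared groups put it to a trial. Mthfd1l was not tested at a count minimum of 50, and the interaction has no fit with fewer groups. The causes of these shifts were not tested. The choice to leave out WT replicates 1 and 3 was made after seeing the data.

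These limits hold throughout: no label says that libraries are separate animals, the WT group mixes 2 kinds of tissue sample by its markers, levels are relative to all other RNA in the library, and transcript counts say nothing of enzyme amounts.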
